A study of Mus musculus with 24 samples.

Results

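The regions of interest were 1319 stretches of the mouse genome that were open in every culture of epidermal stem cells (EpdSCs) and had no peak in the same kind of cell sorted from skin. The assay was ATAC-seq, where the transposase Tn5 cuts accessible DNA, and each group of samples came with 1 list of peaks made from 2 pooled replicates. Peaks of all 12 lists on chromosomes 1 to 19 and X were joined into 134312 union regions wherever they overlapped by at least 1 bp. The 1319 regions, called culture regions here, were chosen by these measured values themselves, a peak in all 7 culture lists and in none of the 5 in vivo lists, so their presence and absence carry no test. They made up 0.982% of the union, 5.38% of the 24534 regions present in all 7 culture lists and 3.37% of the 39092 regions present in some culture list and no in vivo list. Absence means that no peak reached the lowest deposited score of 3, not that the chromatin was closed.

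All cells were from male CD1 mice whose K14rtTA transgene lets doxycycline (DOX) switch on a second transgene in K14-expressing keratinocytes. The in vivo lists came from K14rtTA; TRE-myc-Sox9 back skin before induction (D0, postnatal day 21) and 1, 2, 6 and 12 weeks into it (W1 at day 28, W2 at day 35, W6 at day 63, and W12 with no age given). Those cells were sorted as high for the basal integrin CD49f and for Ly6A and negative for CD34 and for endothelial, immune, melanocyte and fibroblast markers, and the study's methods give W12 as neonatal skin grafted onto immunocompromised hosts. The culture lists came from keratinocytes of newborn mice grown in low-calcium medium, with no sort recorded: K14rtTA; TRE-myc-Sox9 cells without DOX (noDOX) or with DOX (WT-SOX9), cells with SOX9 lacking its DNA-binding HMG domain (ΔHMG-SOX9, labelled noHMG) or its transactivation domain (ΔTA-SOX9, labelled noTA), cells with TRE-FLAG-AFOS (AFOS), and TRE-myc-Sox9 cells with TRE-FLAG-AFOS (SOX9+AFOS) or TRE-ARID1a (SOX9+ARID1a). DOX was given at 1 µg per ml, for 3 days where the labels state a day. AFOS is an engineered FOS that dimerises with JUN proteins and stops them from binding DNA, and ARID1a is a subunit of the SWI/SNF remodeller. Every arm was set against the same noDOX list, labelled as WT-SOX9 cells. No uninduced cells of the other lines are among the 24 samples. Culture and skin also differed in the age of the donor, the sort, the medium, lentiviral lines under puromycin and the layout of the deposited files, and these cannot be told apart here.

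Chromatin that opens in 1 state of a cell and not in another is mostly enhancer chromatin, stretches far from gene starts that transcription factors hold open by binding short words of DNA. AP1 factors, dimers of FOS and JUN proteins, are activated by growth factors, stress and wounding. TEAD factors bring the co-activators YAP and TAZ to DNA, and YAP enters the nucleus of epithelial cells that are spread on a stiff surface. RUNX factors act in hair follicle and epidermal stem cells and often share enhancers with AP1. SOX9, the factor induced in this study, drives hair follicle fate and binds SOX words.

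Openness was read from the deposited peak score, which has no unit. The lists held 49458 to 75909 peaks and their scores summed to 925672 to 995521, so scores were taken as scaled to about the same total, an inference from the values. Markers of keratinocytes had a peak at the gene start for 6 of 6 genes in all 12 lists, immune markers for 0 of 4 in all 12 lists, fibroblast markers for 1 to 2 of 7, melanocyte markers for 2 to 3 of 7 and endothelial markers for 0 to 3 of 4. In 3 lists, those of SOX9+ARID1a and of both AFOS arms, the peak names contain the word fragments, which the names in the other 9 do not. Whether peaks were called differently in these 3 is not stated. With 1 pooled list a group there is no replicate error, and every difference below is a description of these lists with no p-value. Intervals beside shares are 95% Wilson intervals, for counting error over regions alone, and regions are not replicates.

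The sequences of 8 of the 12 strongest culture regions are shown first because each holds a word of a factor family on which the later comparisons turn. Of the 12, 9 hold an AP1, TEAD or RUNX word, as do 55.4% of all culture regions. Each line gives the 200 bp at the centre of the region on the plus strand of GRCm38. Capitals mark AP1 words (TGACTCA or TGAGTCA), TEAD words (GGAATG) and RUNX words (TGTGGT), searched on both strands, so that CATTCC is a TEAD word and ACCACA a RUNX word read from the other strand. A match is a description of the letters and not a shown binding site. Regions are named after the gene they lie in or near.
Dcaf5 intron, chr12:80344640-80344839: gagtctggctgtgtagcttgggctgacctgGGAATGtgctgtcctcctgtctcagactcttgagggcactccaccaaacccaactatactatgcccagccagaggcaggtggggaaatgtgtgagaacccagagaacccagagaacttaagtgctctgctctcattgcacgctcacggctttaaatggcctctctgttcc
Myo16 intron, chr8:10619828-10620027: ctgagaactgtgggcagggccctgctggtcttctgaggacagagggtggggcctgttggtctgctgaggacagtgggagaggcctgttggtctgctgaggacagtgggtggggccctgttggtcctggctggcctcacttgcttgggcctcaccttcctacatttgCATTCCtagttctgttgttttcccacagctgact
Glis1 intron, chr4:107468273-107468472: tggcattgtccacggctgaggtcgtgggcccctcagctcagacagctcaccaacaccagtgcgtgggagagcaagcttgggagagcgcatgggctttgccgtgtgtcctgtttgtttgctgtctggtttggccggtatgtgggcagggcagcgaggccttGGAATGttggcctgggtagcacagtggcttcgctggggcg
Rabgap1l intron, chr1:160531565-160531764: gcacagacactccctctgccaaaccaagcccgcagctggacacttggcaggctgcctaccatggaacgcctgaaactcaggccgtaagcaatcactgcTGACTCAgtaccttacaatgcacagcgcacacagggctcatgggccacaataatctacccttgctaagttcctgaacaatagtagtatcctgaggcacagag
near Itpr2, chr6:146527509-146527708: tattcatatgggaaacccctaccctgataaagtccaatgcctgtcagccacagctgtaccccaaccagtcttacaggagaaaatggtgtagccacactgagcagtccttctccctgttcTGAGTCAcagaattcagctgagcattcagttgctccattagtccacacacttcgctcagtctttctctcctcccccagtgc
Fbxo31 intron, chr8:121573294-121573493: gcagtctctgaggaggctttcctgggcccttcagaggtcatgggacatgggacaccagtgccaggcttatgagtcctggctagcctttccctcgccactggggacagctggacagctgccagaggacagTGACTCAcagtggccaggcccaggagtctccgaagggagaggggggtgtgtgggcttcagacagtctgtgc
far Nr2f2 region, chr7:70037047-70037246: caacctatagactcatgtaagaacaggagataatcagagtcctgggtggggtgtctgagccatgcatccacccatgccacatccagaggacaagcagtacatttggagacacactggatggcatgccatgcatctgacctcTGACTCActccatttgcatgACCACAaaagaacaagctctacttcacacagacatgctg
nearer Nr2f2 region, chr7:70144950-70145149: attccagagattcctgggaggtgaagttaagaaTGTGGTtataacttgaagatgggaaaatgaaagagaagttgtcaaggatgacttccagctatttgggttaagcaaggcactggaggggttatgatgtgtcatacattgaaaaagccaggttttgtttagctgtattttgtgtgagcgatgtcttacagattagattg

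The first 3 of these lines hold a TEAD word, the next 3 an AP1 word, the seventh both an AP1 and a RUNX word and the eighth a RUNX word. The line from Rabgap1l also has a SOX word (ACAATAG or ACAATGG) further on, left in lower case.

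The strongest regions were picked by their lowest score over the 7 culture lists, so that each was high in all of them. In the 12 that led, the lowest score ran from 23.8 to 51 and the highest from 48.7 to 117, and 7 of the 12 lay in introns. The nearest in vivo peak was 4674 to 118534 bp away. The region with the highest floor lay in an intron of Dcaf5, an adaptor of a ubiquitin ligase, at chr12:80343885-80345595, and 84369 bp from the start of Actn1, which encodes the actin crosslinker alpha-actinin. Its score was 51 in noDOX, 78.4 in WT-SOX9, 70.4 in ΔHMG-SOX9, 60.8 in ΔTA-SOX9, 54.7 in AFOS, 55.7 in SOX9+AFOS and 77.6 in SOX9+ARID1a. This was also the most even of the 12, with the highest score 1.54 times the lowest.

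An intron of Foxp1, a forkhead factor, held the next one at chr6:99175092-99175851. Its score was 40.2 in noDOX, 37.7 in WT-SOX9, 55.4 in ΔHMG-SOX9, 33.9 in ΔTA-SOX9, 50.1 in AFOS, 57.3 in SOX9+AFOS and 51.9 in SOX9+ARID1a, so the ΔTA-SOX9 list was lowest and SOX9+AFOS highest. In the Rabgap1l intron, at chr1:160531497-160531833, the score was 50.1 in noDOX, the highest, 39.6 in WT-SOX9, 41.6 in ΔHMG-SOX9, 30.7 in ΔTA-SOX9, 47.1 in AFOS, 27.9 in SOX9+AFOS, the lowest, and 35 in SOX9+ARID1a. The region at chr6:146527143-146528075, 25431 bp from a start of the calcium channel gene Itpr2, had 50.6 in noDOX, 25 in WT-SOX9, 32.5 in ΔHMG-SOX9, 73.3 in ΔTA-SOX9, 71.7 in AFOS, 41.7 in SOX9+AFOS and 68.3 in SOX9+ARID1a. WT-SOX9 was the lowest list at this AP1-word region, while AFOS was among the highest.

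A further strong region lay beyond Krt18 in a keratin gene cluster. At chr15:102045026-102046190 it was 17428 bp from the start of Krt18 and 41126 bp from that of Krt8, the partner keratins of simple epithelia. Its score was 39.1 in noDOX, 55 in WT-SOX9, 64 in ΔHMG-SOX9, 76.5 in ΔTA-SOX9, 99.8 in AFOS, 24.2 in SOX9+AFOS and 50.9 in SOX9+ARID1a. AFOS gave the highest score and AFOS together with SOX9 the lowest, 4.13-fold apart. None of the AP1, TEAD or RUNX words stood in the central window of this region. In the Glis1 and Myo16 introns the scores ran from 27.8 to 58.3 and from 28.9 to 74.3, with ΔTA-SOX9 lowest at both. The Fbxo31 intron region ran from 23.9 in SOX9+AFOS to 51.6 in WT-SOX9.

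A pair of regions in the gene-poor stretch beside Nr2f2, the gene of the nuclear receptor COUP-TFII, were among the 12. They lay 329588 and 221685 bp from its annotated gene start, at chr7:70036773-70037520 and chr7:70144558-70145541. The farther one ran from 24.5 in WT-SOX9 to 53.8 in SOX9+ARID1a and the nearer one from 23.8 in WT-SOX9 to 48.7 in AFOS, and the nearer one was the most distant of the 12 from any in vivo peak, at 118534 bp. The remaining 2 of the 12 were on chromosome 18. The one 129579 bp from a start of Mbd2, which encodes a methyl-CpG-binding protein, held a TEAD word and ran from 30.2 in SOX9+AFOS to 117 in WT-SOX9, and the one in an intron of Ccbe1, a gene of lymphatic growth, ran from 29.6 in WT-SOX9 to 76.8 in SOX9+AFOS.

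**Figure D1:**
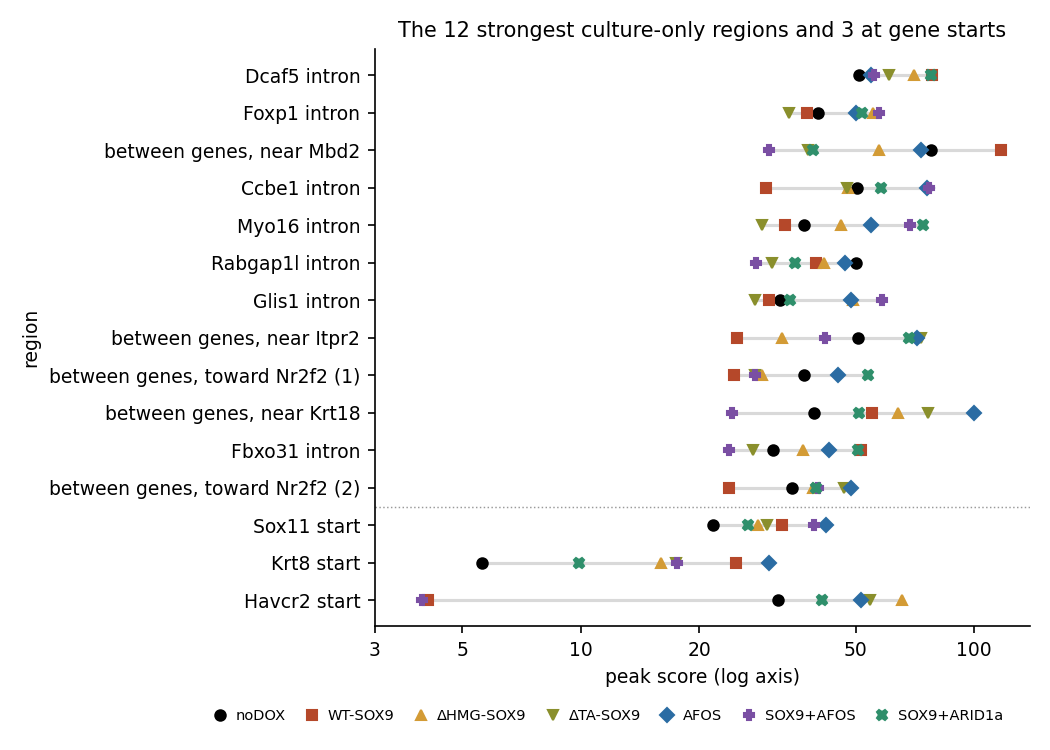
Deposited peak score (horizontal axis, no unit, log scale) of the 12 strongest culture regions and, under the dotted line, of 3 at gene starts described further on, with a point for each of the 7 culture lists. The Dcaf5 region runs from 51 to 78.4, while the region near Krt18 spreads from 24.2 to 99.8.

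Most culture regions were far weaker than these. The median score of the 1319 was 12.7 in noDOX, 7.71 in WT-SOX9, 11.4 in ΔHMG-SOX9, 9.97 in ΔTA-SOX9, 16.8 in AFOS, 9.34 in SOX9+AFOS and 17.1 in SOX9+ARID1a. Over the 18947 regions present in all 12 lists the medians were higher and nearly level, 27.1, 25, 25.8, 21.6, 21.4, 24.8 and 20.6 in the same order. The culture regions thus sat at different ranks in different lists, at the 41.4 percentile of the peaks in WT-SOX9 and 44.8 in SOX9+AFOS, against 68.9 in AFOS and 67.4 in SOX9+ARID1a. For a single culture region the median of the lowest score was 4.8 and of the highest 25.8. The lowest score was under 5 in 709 of them (53.8%), at least 10 in 173 and at least 20 in 23.

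The lists did not move together over the culture regions. The median ratio of highest to lowest score was 4.59 and 42 regions (3.18%) stayed within 2-fold. AFOS had the highest score in 398 (30.2%) and SOX9+ARID1a in 370 (28.1%), while WT-SOX9 had the lowest in 388 (29.4%), SOX9+AFOS in 382 (29.0%) and ΔTA-SOX9 in 265. Neither the ratio nor these counts were taken over all 24534 regions of the 7 culture lists. They are thus not shown to be particular to the culture regions. Spearman's rank correlation of the scores over the 1319 regions was highest between ΔHMG-SOX9 and ΔTA-SOX9 and between ΔTA-SOX9 and AFOS, 0.73 each, and was 0.67 between noDOX and SOX9+ARID1a. It was 0.00 in size between ΔTA-SOX9 and SOX9+AFOS. These correlations are across regions that share libraries, and are given as descriptions.

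**Figure D2:**
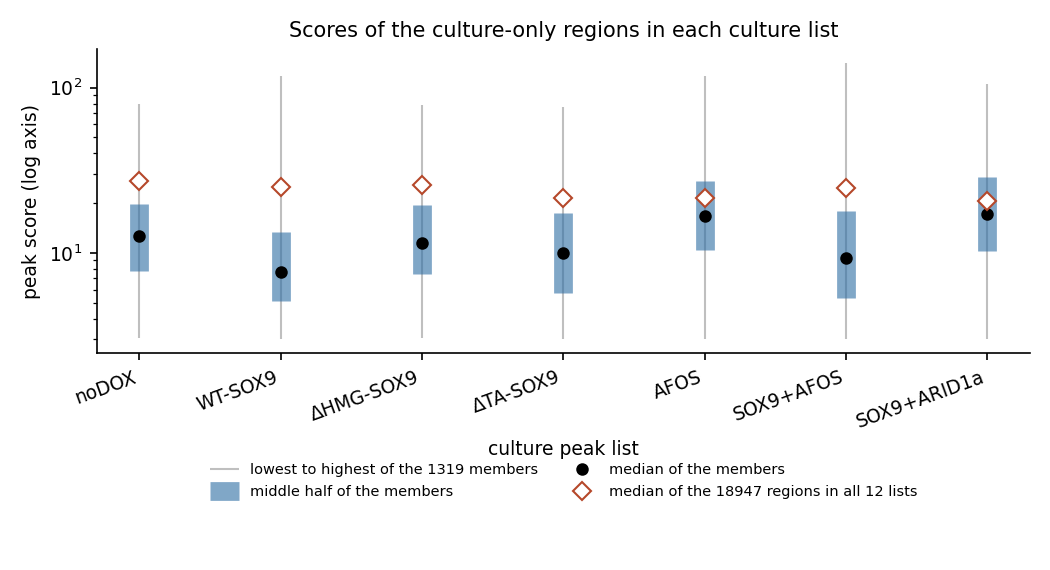
Deposited peak score (vertical axis, no unit, log scale) of the 1319 culture regions and of the 18947 regions present in all 12 lists, by culture list. Lines run from the lowest to the highest culture region, black points and blue bars give the median and quartiles of the culture regions, and open diamonds the median of the other set. The culture regions are lowest in WT-SOX9 (median 7.71) and highest in SOX9+ARID1a (17.1), while the regions of all 12 lists stay between 20.6 and 27.1.

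The weakest members were barely inside the rule. A region 7491 bp from a start of Ankrd33b, at chr15:31374729-31375705, had a score of 3 in WT-SOX9 and 4.81 to 13.3 in the other culture lists. An intron of Lpp, which encodes a LIM protein of focal adhesions, held a region at chr16:24427427-24428459 with 3.01 in SOX9+AFOS and 26.4 in noDOX, and the Krba1 region at chr6:48411252-48411763 had 3.01 in WT-SOX9 and 46.4 in SOX9+AFOS. Just outside were 612 regions with all 7 culture peaks and 1 in vivo peak, which was the W12 peak in 284, W6 in 178, W1 in 67, W2 in 53 and D0 in 30, with a median in vivo score of 4.21 (3 to 29.5). One of these, 323510 bp from a start of Nav3 at chr10:110323374-110324084, had 3.01 at W12 and 7.53 to 40.6 in culture. The graft list W12 therefore set the edge of the culture regions most often on the in vivo side.

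On the culture side, 1781 regions had no in vivo peak and lacked 1 culture list. The missing list was SOX9+AFOS in 1071, WT-SOX9 in 294, ΔTA-SOX9 in 214, SOX9+ARID1a in 63, noDOX in 60, ΔHMG-SOX9 in 57 and AFOS in 22. A region 30998 bp from a start of Gnpat, at chr8:124831608-124832462, had 25.8 to 51.3 in the other 6 lists and no SOX9+AFOS peak. Without the SOX9+AFOS list the rule would have taken 2390 regions, and without the 3 lists named for fragments 2863, in place of 1319.

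The culture regions seldom lay at gene starts. Only 51 of 1319 (3.87%, interval 2.95 to 5.05%) had their centre within 1 kb of the transcription start site (TSS) of a protein-coding gene, against 48.9% of the regions in all 12 lists, 11.5% of the 5911 regions present in all 5 in vivo lists and no culture list (skin regions), and 11.9% of the union. By their centres, introns held 50.1%, against 41.4% in the union, while the space between genes held 43.2% against 44% and exons 2.81% against 2.72%. The median distance to a TSS, 22970 bp, was close to the 22372 bp of the union, and 31.2% were over 50 kb away in both sets. Their median width was 713 bp (quartiles 563 to 901). Their central windows were poor in CpG, with 2.35 a window against 10.8 in the regions of all 12 lists and 4.12 in the union, and had a median GC content of 48% against 56.5%, 48.5% and, in skin regions, 50%. The sets on either side of the rule were alike. Of the 1781 regions without an in vivo peak that lacked 1 culture list, 2.92% lay within 1 kb of a TSS and 50.5% in introns, with 2.12 CpG a window. For the 612 with all 7 culture peaks and 1 in vivo peak the values were 5.07%, 51.1% and 2.86. These traits were thus not particular to the culture regions. The rule barred an overlap with an in vivo peak but not one nearby. The median gap to the nearest was 6556 bp, with 814 (61.7%) within 10 kb, 130 (9.86%) within 1 kb and 3 within 200 bp.

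Among the 51 regions centred within 1 kb of a TSS, the 3 with the highest floor were at Sox11, Pacsin2 and Lrp1. Sox11 encodes a relative of SOX9 active in embryonic progenitors, and its culture region at chr12:27341206-27343406 covered coding sequence and UTR of the gene's single exon. Its score was 21.7 in noDOX, 32.6 in WT-SOX9, 28.3 in ΔHMG-SOX9, 29.8 in ΔTA-SOX9, 42.1 in AFOS, 39.2 in SOX9+AFOS and 26.6 in SOX9+ARID1a, so noDOX was the lowest list. The region near a TSS of Pacsin2, which encodes a membrane-bending protein, ran from 12.4 in SOX9+AFOS to 36.6 in SOX9+ARID1a. That of the endocytic receptor gene Lrp1 ran from 11.1 in WT-SOX9 to 40.9 in ΔHMG-SOX9. The Lrp1 region covered coding sequence inside the gene body, 473 bp from a TSS that is not the annotated gene start. Among the others near a TSS was that of Pax2, a factor of kidney and ear development, at chr19:44754801-44757624 (5.71 to 17). Upk1b, a uroplakin gene of the bladder lining (3.23 to 13.8), and the uroplakin-like gene Upk3bl (6.74 to 46.6) also had one. So did the keratinocyte genes Padi3 (3.76 to 25.1) and Kprp (5.36 to 11). The region near a TSS of Foxm1, a cell cycle factor, was weak throughout, from 3.18 to 6.06. These other regions were singled out after their values were seen.

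Short words of DNA were counted in the culture regions and in the other region sets. A TEAD word stood in the central 200 bp of 25.6% (interval 23.3 to 28%) of the culture regions, against 10.8% of skin regions, 11.1% of the regions in all 12 lists and 15.5% of the union. A RUNX word stood in 24.4% (22.2 to 26.8%), against 12.3%, 11.3% and 16.5%. An AP1 word stood in 22.1% (19.9 to 24.4%), against 12.8%, 12.9% and 19.4%. The sets on either side of the rule were closer for TEAD, with 24.3% (21.1 to 27.9%) in the 612 regions that had 1 in vivo peak and 22.7% (20.9 to 24.7%) in the 1781 that lacked 1 culture list. RUNX words stood in 19% and 20.9% of these, and AP1 words in 25.2% and 29%. The same letters read backwards, which keep the base composition, gave 7.66%, 13.0% and 5.38% in the culture regions and 6.8%, 11.8% and 4.8% in the union. The whole set of 24 words was chosen with earlier results known, and of the 23 other than AP1 the interval of the culture regions lay above the union's share for 3, TEAD, RUNX and the steroid receptor palindrome.

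The steroid receptor palindrome, the element bound by glucocorticoid and related receptors, was rare, with 1.44% (0.924 to 2.24%) of culture regions, 0.389% of skin regions, 0.491% of the regions in all 12 lists and 0.613% of the union. It was as frequent, at 1.46%, in the 1781 regions that lacked 1 culture list and had no in vivo peak. SOX words stood in 5.38% of the culture regions, 4.03% of skin regions, 2.63% of the regions in all 12 lists and 6.07% of the union. GATA words (AGATAA) stood in 9.55% of culture regions and 12.7% of skin regions. Words of promoters were scarce, with 1.52% for KLF/SP (GGGCGGG) against 18.2% in the regions of all 12 lists and 0.607% for ETS (CCGGAAG) against 6.23%. A control word of T-box factors (AGGTGTGA), not tied to this tissue, was level at 1.21% against 1.28% in the union.

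**Figure D3:**
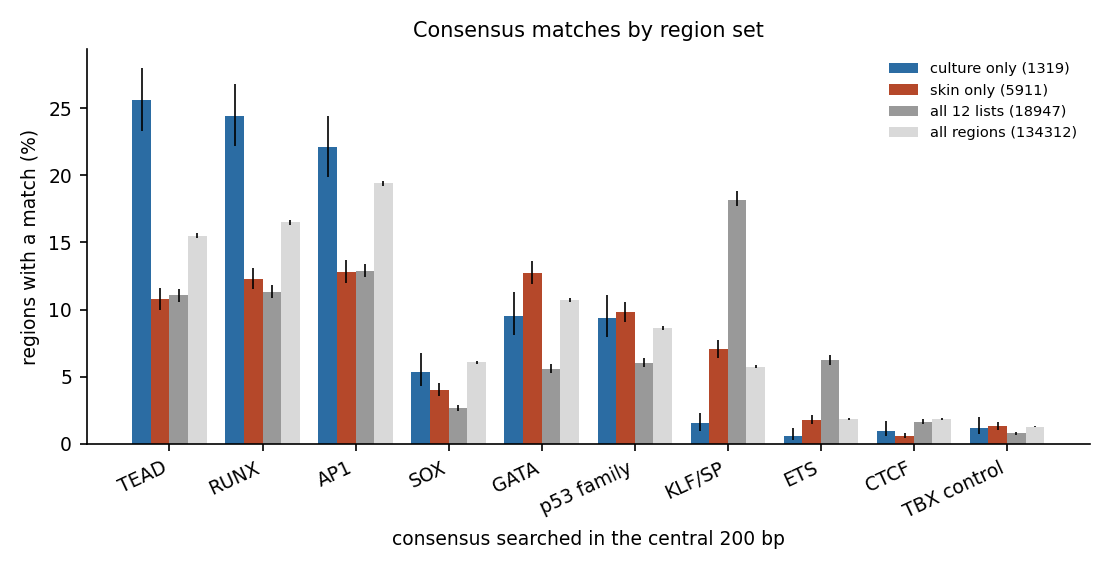
Share of regions (vertical axis, percent) with each word (horizontal axis) in the central 200 bp, for culture regions, skin regions, regions in all 12 lists and the union, with error bars for 95% Wilson intervals. TEAD (25.6% against 15.5% in the union) and RUNX (24.4% against 16.5%) lie apart from the union, and KLF/SP is at 1.52%.

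TEAD and RUNX words were also frequent within strata of position and base composition. Among regions over 1 kb from a TSS, an alternative added after seeing the data, TEAD words stood in 26.3% of culture regions against 11.4% of skin regions, 15.8% of the regions in all 12 lists and 16.6% of the union, and RUNX words in 24.5% against 13.1%, 15.7% and 17.6%. AP1 words did not differ from the open chromatin around them there, at 22.1% against 22.7% of the regions in all 12 lists and 21.3% of the union, though skin regions stayed lower at 14%. With the union split into 3 bins of about equal size by low, middle and high GC content, the TEAD shares were 25.1%, 28% and 23.3%, against 16.6%, 17.4% and 12.6% in the union, and the RUNX shares 25.3%, 26.4% and 20.9% against 17.6%, 18.2% and 13.6%. For AP1 only the high GC bin stood apart, with 22.4%, 23.5% and 19.9% against 22.8%, 22.5% and 12.9%.

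The words also gathered at the middle of the culture regions. TEAD words were 2.02 times as dense within 100 bp of the centre as at 200 to 400 bp from it (77 against 38.1 per 1000 regions per 50 bp), while the ratio was 1.05 in skin regions and 1.09 in the regions of all 12 lists. For RUNX words the ratio was 1.59 (70.9 against 44.6), and 0.911 and 0.96 in the other sets. AP1 words were centred in every set, with a ratio of 3.32 in culture regions, 3.32 in skin regions and 2.52 in the regions of all 12 lists. The TEAD and RUNX ratios were thus higher in the culture regions than in skin regions and the regions of all 12 lists, while AP1 words were denser at the centre in all 3 sets. The sets on either side of the rule were not profiled in this way.

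Many culture regions held more than 1 of the 3 words. At least 1 stood in 731 (55.4%, 52.7 to 58.1%), against 31.5% of skin regions, 30% of the regions in all 12 lists and 42.7% of the union, which leaves 44.6% of the culture regions with none. At least 2 stood in 200 (15.2%), against 4.2%, 4.97% and 8.15%, and all 3 in 20 (1.52%), against 0.203%, 0.296% and 0.497%. The pair AP1 and TEAD was found in 6.37% against 1.2% of skin regions, TEAD and RUNX in 6.75% against 1.45%, and AP1 and RUNX in 5.08% against 1.95%.

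The words were also counted by the number of lists with a peak. Among regions with no in vivo peak, the TEAD share was 20.2% in those of 1 culture list, 19.6%, 20.7%, 21%, 20.1% and 22.7% in those of 2 to 6, and 25.6% in the culture regions of all 7. RUNX words stayed at 20.1% to 21.3% up to 6 lists and reached 24.4% at 7. AP1 words took another course, rising from 20% at 1 list to 32.6% at 5 and falling to 29% at 6 and 22.1% at 7, and SOX words went from 9.46% at 1 list to 5.38% at 7. Among regions of all 7 culture lists the TEAD share was 25.6%, 24.3%, 18.7%, 22.5%, 18.2% and 11.1% as the number of in vivo peaks went from 0 to 5. Within the culture regions split into 3 bins of about equal size by their lowest score, it was 22% in the lowest bin, 25.7% in the middle and 29.1% in the highest, while AP1 was 22.3%, 20.7% and 23.2%.

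The fall of the AP1 share from 6 lists to 7 went with the SOX9+AFOS list. AP1 words stood in 37.7% (34.9 to 40.7%) of the 1071 regions that lacked that list alone, 21.8% of the 294 that lacked WT-SOX9, 13.1% of the 214 that lacked ΔTA-SOX9, 6.67% of the 60 that lacked noDOX, 17.5% of the 57 that lacked ΔHMG-SOX9, 18.2% of the 22 that lacked AFOS and 3.17% (0.875 to 10.9%) of the 63 that lacked SOX9+ARID1a. TEAD words in the same 7 sets stood in 20.6%, 26.5%, 26.2%, 21.7%, 36.8% (25.5 to 49.8%), 13.6% and 20.6%. Without the SOX9+AFOS list in the rule, AP1 words stood in 28.9% of the regions it then took. Whether this list differed by its cells or by its peak calling was not tested.

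**Figure D4:**
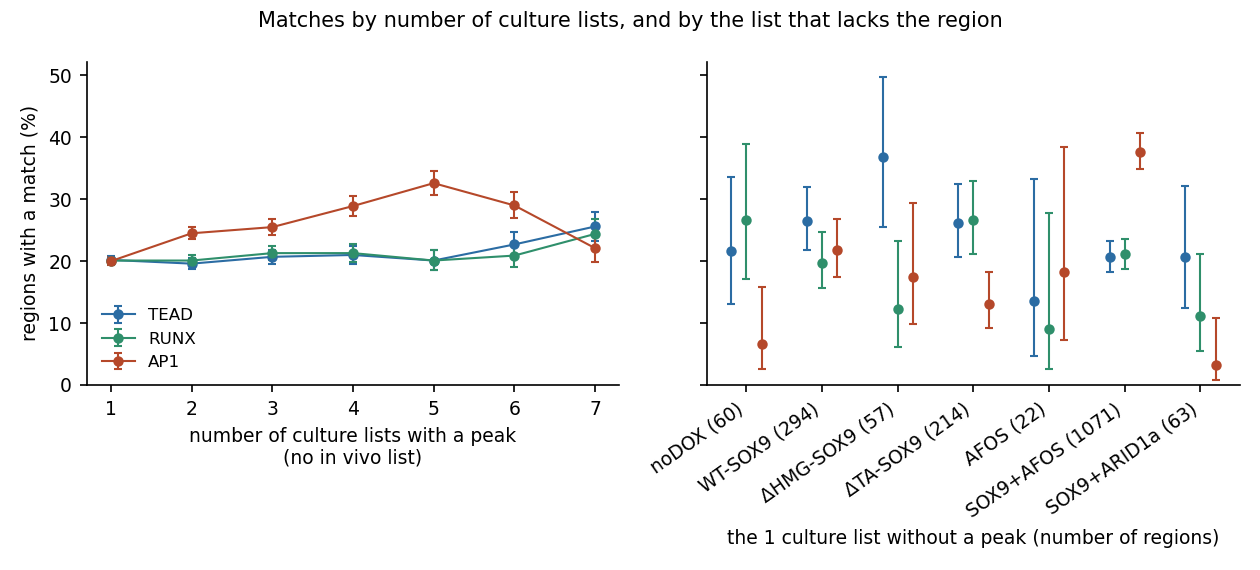
Share of regions with no in vivo peak that hold a TEAD, RUNX or AP1 word (vertical axis, percent, points with 95% Wilson intervals), against the number of culture lists with a peak (left) and, for regions of 6 culture lists, by the list that lacks the peak (right, number of regions in brackets). On the left TEAD words reach 25.6% at 7 lists where AP1 words drop to 22.1%, and on the right AP1 words are at 37.7% in the regions that SOX9+AFOS lacks.

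Scores of the culture regions were next set against noDOX in each arm. The noDOX list is labelled as WT-SOX9 cells, so the other arms differ from it in cell line as well as in the induced protein. These cannot be told apart here. The rule used presence of a peak and not its height, but it did require a peak in both lists, so regions that an arm closed are not among them. On the log2 scale the median difference from noDOX was −0.61 in WT-SOX9, −0.01 in ΔHMG-SOX9, −0.27 in ΔTA-SOX9, 0.44 in AFOS, −0.34 in SOX9+AFOS and 0.42 in SOX9+ARID1a. The regions of all 12 lists had 0.00, −0.01, −0.26, −0.33, −0.05 and −0.43 in the same order. The culture regions thus lay lower than these in WT-SOX9 and SOX9+AFOS, higher in AFOS and SOX9+ARID1a, and close to them in both SOX9 mutants. The sets differ in position, with 48.9% of the regions of all 12 lists within 1 kb of a TSS against 3.87% of culture regions. No arm was compared over regions away from a TSS alone, so the part of position was not tested.

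Counts past 2-fold showed the same order, and all are set beside the background share of the 24534 regions of all 7 culture lists. In WT-SOX9, 427 culture regions (32.4%) were at least 2-fold lower than in noDOX where the background was 17.2%, and 85 (6.44%) were higher where it was 3.51%. In ΔHMG-SOX9, 166 (12.6%) were lower and 116 (8.79%) higher, with backgrounds of 6.27% and 2.32%. In ΔTA-SOX9, 266 (20.2%) were lower and 96 (7.28%) higher, with backgrounds of 13.3% and 1.96%. Over all noDOX scores each of these 3 SOX9 forms thus had more culture regions past 2-fold on both sides than the background.

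In AFOS the balance was turned, with 344 (26.1%) higher against a background of 5.17% and 89 (6.75%) lower against 14.3%. SOX9+ARID1a had 319 (24.2%) higher against 6.14% and 52 (3.94%) lower against 19.4%. SOX9+AFOS spread both ways, with 405 (30.7%) lower against 20.2% and 226 (17.1%) higher against 8.67%. With the scores scaled so that the regions of all 12 lists had a median ratio of 1 to noDOX, the higher and lower counts were 505 and 51 in AFOS (background 10.4% and 6.79%), 560 and 17 in SOX9+ARID1a (14.3% and 8.7%) and 159 and 176 in ΔTA-SOX9 (3.74% and 8.11%). The balance of higher and lower in ΔTA-SOX9 thus rests on the scaling. Since the culture regions were weak, the medians were also taken over regions with a noDOX score of 7.73 to 19.8, an alternative added after seeing the data, which left 659 culture regions and 7376 other regions of all 7 culture lists. There the medians were −0.73 against −0.10 in WT-SOX9, −0.12 against −0.05 in ΔHMG-SOX9, −0.37 against −0.31 in ΔTA-SOX9, 0.42 against −0.12 in AFOS, −0.49 against 0.03 in SOX9+AFOS and 0.38 against −0.21 in SOX9+ARID1a. At these like noDOX scores, 36.4% of culture regions against 16.5% of the others were 2-fold lower in WT-SOX9 and 32.8% against 16.5% in SOX9+AFOS. The excess on the higher side was not seen there, with 4.7% against 5.4% in WT-SOX9 and 13.5% against 12.3% in SOX9+AFOS, whereas in ΔHMG-SOX9 and ΔTA-SOX9 both sides stayed above the others. The separation of the medians in WT-SOX9, AFOS, SOX9+AFOS and SOX9+ARID1a was thus present at like noDOX scores. The part of the fragment-named peak lists in the last 3 was not tested, nor that of position relative to a TSS in any arm.

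**Figure D5:**
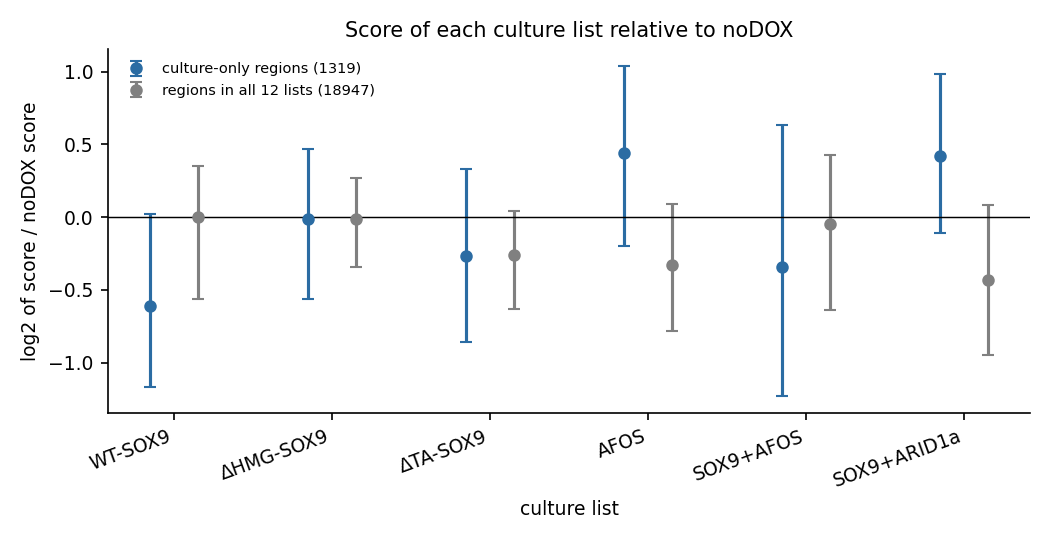
Log2 ratio of the deposited score to noDOX (vertical axis) in each arm for culture regions and for regions in all 12 lists, points at the median and bars over the quartiles. Culture regions lie below the other set in WT-SOX9 (−0.61 against 0.00) and above it in AFOS (0.44 against −0.33) and SOX9+ARID1a (0.42 against −0.43).

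Scores were also split by the words a region held, and most of these splits were not particular to the culture regions. The 291 with an AP1 word had a median log2 difference from noDOX of −0.83 in SOX9+AFOS and the 1028 without one −0.16, and 43% of the first against 27.2% of the second were at least 2-fold lower. The regions of all 12 lists showed this split in SOX9+AFOS more widely, with −0.77 and 0.01, and 43% against 12.1% at least 2-fold lower. In WT-SOX9 the medians with and without an AP1 word were −0.72 and −0.57 in culture regions and −0.56 and 0.06 in the regions of all 12 lists. In AFOS alone they were 0.36 and 0.45, against −0.26 and −0.34. The 338 with a TEAD word lay higher than the rest in AFOS, at 0.61 against 0.37, where the regions of all 12 lists had −0.24 and −0.34, and in SOX9+ARID1a, at 0.54 against 0.37, where those had −0.15 and −0.46. The 71 with a SOX word lay at −0.39 in WT-SOX9 against −0.62 for the rest and at 0.08 in SOX9+AFOS against −0.36. In the regions of all 12 lists the values with and without a SOX word were −0.03 and 0.01 in WT-SOX9 and −0.08 and −0.05 in SOX9+AFOS.

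Single culture regions moved much further in WT-SOX9 than these medians. The largest rises over noDOX were from 3.31 to 27.1 at chr12:17209401-17210027, 32826 bp from a start of the potassium channel gene Kcnf1, from 3.31 to 24.5 in an intron of Cipc, an inhibitor of the CLOCK factor, and from 3.07 to 22.2 in an intron of the potassium channel gene Kcnab1. All 3 sat near the lowest score in noDOX, and their log2 differences were 3.03, 2.89 and 2.86. In ΔHMG-SOX9 they had 6.47, 7.19 and 5.77. The largest falls were from 28.5 to 3.42 at chr11:46321443-46322689, 9207 bp from a start of the actin regulator gene Cyfip2, from 31.7 to 4.1 at the start of Havcr2, and from 39.3 to 5.52 in an intron of the plakophilin gene Pkp4, which are log2 differences of −3.06, −2.95 and −2.83.

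Havcr2, the gene of the immune receptor TIM-3, showed how far the arms could part. Its culture region at chr11:46454447-46455337 had 31.7 in noDOX, 4.1 in WT-SOX9, 65.5 in ΔHMG-SOX9, 54.4 in ΔTA-SOX9, 51.6 in AFOS, 3.96 in SOX9+AFOS and 41.1 in SOX9+ARID1a. The score was under 5 in WT-SOX9 and SOX9+AFOS and over 30 in the other 5 lists, including SOX9+ARID1a. The Pkp4 region at chr2:59339579-59340683 had 39.3, 5.52, 12.9, 27.6, 47.5, 7.73 and 61.8 in the same order, low in the same 2 lists.

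Genes of skin biology were sought in 15 lists with 197 genes, chosen with earlier results known, and a gene counted when a culture region lay in its body or within 10 kb. This held for 17 of 197 (8.63%, interval 5.46 to 13.4%), against 960 of all 21755 protein-coding genes, a background of 4.41%. Skin regions touched 52 of the same 197 (26.4%) and 14.8% of all genes, so the lists lie near open chromatin of either kind. By list the counts were 4 of 18 for integrins and basement membrane, 3 of 16 for proteases and their inhibitors, 2 of 9 for simple-epithelium and stress keratins and 2 of 12 for the actin cytoskeleton. They were 1 of 14 for epidermal identity factors, 1 of 13 for YAP and TEAD, 1 of 10 for AP1 subunits, 1 of 21 for cytokines, 1 of 11 for cell cycle and 1 of 12 for oxidative stress and glycolysis. EGF signalling (0 of 10), TGF-beta and BMP (0 of 15), terminal differentiation (0 of 12), hair follicle and Hedgehog (0 of 15) and mesenchymal transition genes (0 of 9) had none.

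The sequences of 3 of these gene-linked culture regions are shown because they carry the words in combination, at a simple-epithelium keratin gene, a basement membrane collagen gene and a matrix protease gene. They are 200 bp at the region centre on the GRCm38 plus strand, with AP1, TEAD and RUNX words in capitals.
Krt19 intron, chr11:100147676-100147875: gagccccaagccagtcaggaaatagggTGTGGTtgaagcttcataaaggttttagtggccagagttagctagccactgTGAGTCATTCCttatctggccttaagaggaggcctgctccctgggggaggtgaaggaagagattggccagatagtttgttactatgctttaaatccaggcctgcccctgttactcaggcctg
Col7a1 intron with the ends of both exons beside it, chr9:108978153-108978352: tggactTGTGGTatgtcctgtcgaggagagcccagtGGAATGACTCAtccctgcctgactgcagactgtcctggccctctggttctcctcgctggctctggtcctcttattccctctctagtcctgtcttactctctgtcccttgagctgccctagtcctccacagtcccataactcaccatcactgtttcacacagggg
Mmp14 intron, chr14:54435332-54435531: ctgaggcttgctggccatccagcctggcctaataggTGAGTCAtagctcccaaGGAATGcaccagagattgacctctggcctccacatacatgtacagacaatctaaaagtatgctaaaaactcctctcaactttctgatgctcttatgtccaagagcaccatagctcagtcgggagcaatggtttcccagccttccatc

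The Krt19 and Col7a1 lines each hold all 3 words, and in both the AP1 and TEAD words share letters. The Mmp14 line holds an AP1 and a TEAD word.

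Of the simple-epithelium keratins, Krt8 had its lowest score without DOX. The culture region at chr15:102003955-102004691, whose centre is 159 bp from the TSS and which covered UTR and coding sequence of the first exon, had 5.61 in noDOX, 24.8 in WT-SOX9, 16 in ΔHMG-SOX9, 17.5 in ΔTA-SOX9, 30.2 in AFOS, 17.6 in SOX9+AFOS and 9.89 in SOX9+ARID1a. All 6 DOX lists were above noDOX. The nearest in vivo peak was only 605 bp from this region. An intron of Krt19, another simple-epithelium keratin that also marks the hair bulge, had 10.4 in noDOX, 7.52 in WT-SOX9, 6.56 in ΔHMG-SOX9, 7.99 in ΔTA-SOX9, 17.2 in AFOS, 4.5 in SOX9+AFOS and 10.4 in SOX9+ARID1a, at chr11:100147565-100147986.

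The culture regions of the 4 basement membrane and integrin genes all had their centre in an intron, and those of Col7a1 and Lama3 also covered coding exon sequence. Col7a1 encodes the anchoring fibril collagen, and its region at chr9:108977815-108978691 had 12.3 in noDOX, 16.5 in WT-SOX9, 18.5 in ΔHMG-SOX9, 17.6 in ΔTA-SOX9, 43.6 in AFOS, 3.08 in SOX9+AFOS and 12.8 in SOX9+ARID1a. An intron of Col4a1, a collagen of all basement membranes, had 29.5, 6.11, 14.4, 17.3, 33.5, 4.3 and 27.8 in the same order, low in both WT-SOX9 and SOX9+AFOS. At Itgb6, the integrin subunit that keratinocytes make in wounds, an intron had 13.4, 4.1, 19.4, 15.2, 19.7, 4.35 and 3.46. Lama3, a laminin chain that anchors basal cells, had one with 8.89 in noDOX as its lowest value and 32.2 in WT-SOX9 as its highest.

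Genes of matrix turnover had regions upstream or in the gene body. Plaur, the urokinase receptor, had one 2699 bp upstream with 9.28 in WT-SOX9 and 28.5 in ΔHMG-SOX9 as its ends, and the membrane protease Mmp14 one centred in an intron, which also covered coding and UTR exon sequence, from 8.07 in WT-SOX9 to 25.7 in AFOS. Of the cytokines, Il1a, an alarm signal of keratinocytes, had a region 6142 bp upstream with 19.8 in noDOX, 9.05 in WT-SOX9, 24.9 in ΔHMG-SOX9, 48.4 in ΔTA-SOX9, 35.1 in AFOS, 4.97 in SOX9+AFOS and 7.19 in SOX9+ARID1a. The 3 lists with full-length SOX9 were the lowest at Il1a.

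The remaining listed genes were mostly weaker. Lats2, a kinase that restrains YAP, had an intronic region from 3.55 in noDOX to 14.8 in AFOS. Klf4, a factor of the epidermal barrier, had an exonic one from 5.27 in WT-SOX9 to 13.6 in AFOS. The glycolytic enzyme gene Hk2 had one in its body, 735 bp from a TSS, from 3.15 to 5.75. Fosb, an AP1 subunit, had a region downstream from 3.48 in SOX9+ARID1a to 13.3 in ΔHMG-SOX9, and Mdm2, the ubiquitin ligase for p53, one from 4.16 in AFOS to 16.4 in SOX9+AFOS. Of the 12 actin cytoskeleton genes only 2 held culture regions. Actn1 had 2 regions, from 3.26 to 25.8. Cald1, which encodes the actin-binding caldesmon, had 3, the strongest from 14.1 in SOX9+AFOS to 47.2 in ΔHMG-SOX9. Of the 20 regions at listed genes, 8 were highest in AFOS, 8 lowest in SOX9+AFOS and 10 held an AP1, TEAD or RUNX word. Over all culture regions these shares were 30.2%, 29.0% and 55.4%, so the counts at listed genes give nothing particular to them.

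Of 1299 neighbouring pairs of culture regions, 48 (3.7%) lay within 10 kb of each other. Leaving aside the read-through model Gm20388, whose window of 4455 kb spans many genes and held 8, the genes with the most were Foxp1 with 6 and the homeobox gene Zfhx3 with 5. The Foxp1 window of 617 kb held 97 union regions. Besides the strong region above, an intronic one at chr6:99446683-99448331 with a RUNX word had 43.3 in noDOX, 18.5 in WT-SOX9, 66.6 in ΔHMG-SOX9, 72.1 in ΔTA-SOX9, 71.2 in AFOS, 7.91 in SOX9+AFOS and 41.1 in SOX9+ARID1a. A further one, at chr6:99112749-99113343 with a TEAD word, was highest in WT-SOX9 at 48.7 and lowest in SOX9+AFOS at 3.41. Within 1 gene the culture regions thus differed in which arm was high.

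Genes with 4 culture regions were Agap1, Ctif, Lpp, Nt5c2, Upk3bl, Vav2 and Gm20696, the last of which shares its regions with Foxp1. Upk3bl, a uroplakin-like gene, was the most compact of them, with 4 of only 7 union regions in a window of 30 kb and 0 regions present in all 12 lists. Its upstream region at chr5:136053075-136053805 had 24.5 in noDOX, 23.4 in WT-SOX9, 36.9 in ΔHMG-SOX9, 17.1 in ΔTA-SOX9, 33.5 in AFOS, 54.1 in SOX9+AFOS and 52.2 in SOX9+ARID1a. All 4 had SOX9+AFOS as the highest list, as did 17.1% of all culture regions. At Vav2, a guanine nucleotide exchange factor, the 4 regions, 1 of which also covered coding exon sequence, ran from 3.38 to 62.5, and the 4 intronic regions of Lpp ran from 3.01 to 31.8.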

How the data were processed

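ATAC-seq was measured in 24 samples, 2 replicates in each of 12 groups. Per the study's methods and the submitters' processing notes (Bowtie2 2.2.9, Picard 2.3.0, SAMtools 1.9, MACS2 2.1.1), paired-end reads were aligned by the authors to GRCm38, who then merged the replicates of a group and called peaks once per group, keeping those with a normalized score of at least 3. The deposited score was used as given, and its scaling to a common total was inferred from the list totals, so read depth is unknown. The in vivo files also hold the authors' fold enrichment (a ratio) and −log10 q-values, which were not compared. Because both replicates were pooled, no replicate error, test or paired fit could be had.

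Peaks on chromosomes 1 to 19 and X were joined at 1 bp overlap, and a region's score in a list was its highest peak. Positions came from GENCODE vM21 protein-coding transcripts and sequence from RefSeq GRCm38, with consensus words searched on both strands of the central 200 bp. Python 3.11.15, pandas 2.3.3, scipy 1.17.1 and pysam 0.24.0 were used, and joining and counting were tested on simulated data. The region rule, word list and gene lists were chosen with earlier results of these data known. Named regions were the 12 with the highest lowest score, the 3 largest and 3 smallest WT-SOX9 to noDOX ratios and the 3 strongest within 1 kb of a TSS. Those nearest the rule's edge, regions within 10 kb of listed genes and the genes with most regions were also named. Other score minimums, joining rules, list sets, windows, scalings and folds were tried. Some regions that these rules name are not reported here.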

Additional observations from a re-analysis of the deposited data

How the results depend on the processing

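No paired analysis was possible because each group was deposited as 1 pooled peak list, which also precludes leaving out a replicate. The number of culture regions, 1319 as reported, was 610 with a score of at least 5 in the culture lists, 2863 without the SOX9+ARID1a list and both AFOS lists and 2390 without the SOX9+AFOS list alone. The share of listed genes was 3.55%, 18.3% and 15.7% under these settings in the same order, and 18.8% with a window of 50 kb, where 2.08%, 8.52%, 7.35% and 9.91% of all protein-coding genes met the same condition. The share near a TSS was 15.5% at 5 kb, against 22.2% in the union. AP1 words stood in 28.5% without the 3 lists, 28.9% without SOX9+AFOS and 45% of full regions, where the union had 33.1%. Around the highest noDOX peak the AP1 share was 23.8% against 23.7% in the union, so AP1 words did not lie above the background there. The number of the 23 other words with an interval above the union, 3 as reported, was 5 with noDOX peaks in place of the union, 5 around the highest noDOX peak and 10 in full regions. TEAD words lay between 21.8% and 58.2% over all settings, with 14.7% to 35.9% in the union, and RUNX words between 22.3% and 55.1%, with 15.5% to 39.3%. With scores scaled on the regions of all 12 lists, the higher and lower counts were 159 and 176 in ΔTA-SOX9 and 560 and 17 in SOX9+ARID1a, and 51 were lower in AFOS. At 1.5-fold in place of 2-fold, the counts were 157 and 675 in WT-SOX9, 267 and 319 in ΔHMG-SOX9, 206 and 465 in ΔTA-SOX9, 556 and 200 in AFOS and 551 and 139 in SOX9+ARID1a, and 341 were higher in SOX9+AFOS. The shares over all regions of the 7 culture lists at 1.5-fold were 12% and 29.3%, 9.43% and 16.1%, 5.53% and 29.2%, 12.6% and 31.1%, and 14% and 35.7% in the same order, and 19.7% higher in SOX9+AFOS, so that WT-SOX9 higher (11.9% of culture regions) did not exceed its background. The cause of these moves was not tested, except that a smaller fold or fewer required lists admits more regions. Read depth is unknown, and a region without a peak may have been open below the score of 3.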

Other observations

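Counting all 2080 words of 6 letters, with no factor named beforehand, gave a further view of the culture regions. Of the 1465 words present in at least 5% of the union, the one most above it was TGACCA, in 218 culture regions (16.5%), against 8.91% of the union, 5.16% of skin regions and 6.82% of the regions in all 12 lists, a ratio of 1.86. Next came ACATTC at 21.7% against 12.7% and CATTCC, the TEAD word, at 25.6% against 15.5%. CTGACC (16.9% against 10.5%) and TGGACA (16.8% against 10.7%) followed among others. TGACCA and CTGACC overlap in letters. The RUNX word ACCACA had a ratio of 1.48. These ratios were read from the data after counting and carry no test.

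The culture regions were spread unevenly over chromosomes. They made up 8.78% (interval 7.13 to 10.8%) of the regions of all 7 culture lists on chromosome 18 and 6.77% (5.63 to 8.13%) on chromosome 5, against 3.03% (2.11 to 4.35%) on chromosome 17 and 3.49% (2.61 to 4.65%) on chromosome 10. In the regions of all 12 lists the median log2 ratio of culture to in vivo score was centred over the genome. It was 0.31 on chromosome 18, 0.06 on chromosome 5, −0.22 on chromosome 17 and −0.00 on chromosome 10. Its lowest values were −0.52 on chromosome 13 and −0.43 on chromosome 14, where the shares of culture regions were 4.22% and 4.56%. Over the 20 chromosomes, which all come from the same 12 lists, Spearman's rank correlation of both quantities was 0.73, given as a description.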
